A study of Caenorhabditis elegans with 16 samples.

Results

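On a miRNA array of 96 probes, 33 gave signal with an Argonaute immunoprecipitation (IP). A probe was chosen when it was detected on at least 1 of the 8 arrays labelled ALG-1 IP or ALG-2-Tag IP. Detection meant that the share of pixels brighter than the local background plus 2 SD was at least 50% when averaged over the 8 spots of the probe. The choice rests on these 8 arrays, so levels and detection there are descriptions and were not tested, whereas the 8 control IP arrays took no part in the choice.

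Lysates of synchronised C. elegans larvae were the source of the small RNA, which was read on 16 arrays of a single colour, 1 array for each of 4 kinds of IP at each of the 4 larval stages, L1 to L4. The ALG-1 IP used a rabbit antibody against ALG-1 on lysate that the labels call wild type, in the N2 background, whereas the methods describe animals with an integrated ALG-1 transgene under its own promoter in alg-1(gk214) mutants. The ALG-2-Tag IP used a mouse antibody against GFP on alg-2 mutants that carried GFP-tagged ALG-2, as an integrated transgene under the alg-2 promoter. The ALG-1 control IP used the ALG-1 antibody on alg-1(gk214) mutants, and the ALG-2-Tag control IP used the GFP antibody on wild-type N2 animals. The labels and the methods name different suppliers of the GFP antibody. No IP and stage had a second array, so the stages stand in for replicates wherever a spread or a test is given, and separate cultures or IPs of 1 stage were not compared. Lysates were of whole animals, in which fewer cells of a type and less miRNA per cell cannot be told apart.

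Mature miRNAs are short RNAs that an Argonaute protein holds as a guide and carries to partly complementary messenger RNAs, whose translation and stability then fall. ALG-1 and ALG-2 are the closely related Argonautes that serve most miRNAs in the worm, and loss of both stops development while loss of either is survived. RNA that comes down with an Argonaute IP holds the miRNAs bound to it, and the IP from animals without the antibody's target measures what comes down regardless. Probes carry only a number in the files, from emc01 to emc96, with no miRNA beside it, so no miRNA, miRNA family or sequence can be given for a probe.

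The 33 probes fell into 3 classes by the IP that detected them. With the ALG-1 IP only, 16 probes were detected: emc19, emc29, emc42, emc46, emc47, emc48, emc50, emc55, emc64, emc69, emc72, emc75, emc80, emc86, emc87 and emc88, called ALG-1 IP probes here. With the ALG-2-Tag IP only, 11 were detected: emc23, emc31, emc32, emc34, emc44, emc51, emc52, emc53, emc61, emc73 and emc74, called ALG-2-Tag IP probes. The other 6, emc04, emc05, emc15, emc16, emc30 and emc45, were detected with both IPs at some stage and are called shared probes. Of the 33, 13 were detected on 1 IP array, 5 on 2, 5 on 3, 5 on 4, 3 on 5, 1 on 6 and 1 on all 8. The probes just inside the threshold were emc53, at 50.5% of pixels on its best IP array, and emc55, at 50.8%, and those just outside were emc25, at 48.2%, and emc02, at 47.5%. A limit of 40% would have admitted 44 probes and one of 60% would have kept 26, so membership near the limit is a matter of degree.

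Facts of the whole series bear on every value below. All arrays were scanned at 1 scanner gain, the 8 control arrays on the first scan day and the 8 Argonaute IP arrays on the second, so the day of the scan cannot be told apart from the IP when an IP is set against its control. The median intensity of the 96 probes lay between 55.0 and 230.0 on the Argonaute IP arrays, between 825 and 1650.0 on the ALG-1 control arrays of L1 to L3, at 203 on that of L4, and between 61.2 and 438 on the ALG-2-Tag control arrays. The profiles of the arrays did not follow the pairing of IP and control in the labels. Over the 63 probes that were not chosen, the mean Spearman rho at matched stages was 0.70 for the ALG-1 IP with the ALG-2-Tag control and 0.77 for the ALG-2-Tag IP with the ALG-1 control, against 0.56 for the ALG-1 IP with its own control and 0.35 for the ALG-2-Tag IP with its own. Over the 33 chosen probes the same 4 values were 0.89, 0.67, -0.09 and -0.37. By the labels the ALG-1 IP and the ALG-2-Tag control share a wild-type genotype but not an antibody. The ALG-2-Tag IP and the ALG-1 control share neither a genotype nor an antibody. Every direction below rests on the labels. Probes share their array and its depth of signal, so these correlations describe the arrays and carry no test.

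Across L1 to L4 the ALG-1 IP detected 22, 11, 7 and 10 probes, which are 22.9%, 11.5%, 7.29% and 10.4% of the 96 probes by the rule itself. The sets were nested. All probes of L2, L3 and L4 were among those of L1, the 10 of L4 were among the 11 of L2, and the 7 of L3 were among the 10 of L4, which added emc15, emc19 and emc86. The ALG-2-Tag IP detected 14, 10, 5 and 8 probes at L1 to L4 (14.6%, 10.4%, 5.21% and 8.33% of the 96), and here the sets were not nested. Detected at L2 but not L1 were emc15 and emc16, and detected at L4 but not L1 were emc05, emc15 and emc16, all of them shared probes. No ALG-2-Tag IP probe was detected at a later stage without having been detected at L1. Brightness fell together with these counts, since the median intensity of the 16 ALG-1 IP probes was 515, 396, 224 and 360.0 on the ALG-1 IP arrays of L1 to L4, and that of the 11 ALG-2-Tag IP probes was 612, 437, 276 and 497 on the ALG-2-Tag IP arrays. Relative to the median of all 96 probes on each array, the ALG-1 IP probes lay 1.16, 1.20, 0.73 and 1.04 higher on the log2 scale at L1 to L4, and the ALG-2-Tag IP probes 2.28, 2.06, 1.22 and 0.85 higher on their own IP arrays. Each class was least set off from the other probes at L3 or at L4, with 1 array behind each value. All 16 ALG-1 IP probes and all 11 ALG-2-Tag IP probes were detected at L1. The rule itself thus favours high values at L1, and the fall after it is not read as a result. The median intensity of all 96 probes at L1 to L4 was 230.0, 157, 85.8 and 149 with the ALG-1 IP. With the ALG-2-Tag IP it was 58.5, 55.0, 72.8 and 119.

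The control arrays, which the rule did not use, separated the classes. The ALG-1 control IP detected all 33 probes at each of L1, L2 and L3, where it detected 82.3%, 63.5% and 79.2% of the 96 probes, and 85.4% at any stage. Of the 63 that were not chosen, 28 were detected on all 3 of these arrays. Its L4 array, the dim one, detected 13 of the 33 (22.9% of the 96). These were 8 of the 11 ALG-2-Tag IP probes, 4 of the 6 shared probes and 1 of the 16 ALG-1 IP probes, emc19. The ALG-2-Tag control IP detected 18 of the 33 at some stage (22.9% of the 96), and the split among classes ran the other way, with 13 of 16 ALG-1 IP probes, 5 of 6 shared probes and 0 of 11 ALG-2-Tag IP probes. The exceptions among the shared probes and the ALG-1 IP probes were emc30, and emc42, emc48 and emc72. At L2, L3 and L4 the ALG-2-Tag control detected 7, 2 and 2 probes of the 33, which were all the probes it detected at those stages (7.29%, 2.08% and 2.08% of the 96). The ALG-2-Tag IP probes were therefore detected on no array made from animals labelled wild type, by the rule for the ALG-1 IP and by measurement for the ALG-2-Tag control. On the ALG-1 control arrays, from mutants without ALG-1, they had median intensities of 4800.0, 2470.0, 2530.0 and 748 at L1 to L4, against 338, 237, 79.5 and 54.0 on the ALG-2-Tag control arrays.

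The levels of single probes follow, as intensities, which are the median over a probe's spots of the spot's brightness less the local background. The 4 values of a group are in the order L1, L2, L3 and L4. The spread between the spots of a detected probe had a median coefficient of variation of 27.1% on ALG-1 IP arrays, 35.8% on ALG-2-Tag IP arrays, 28.5% on ALG-1 control arrays and 25.6% on ALG-2-Tag control arrays, which covers the array surface and not the IP. Levels are compared between arrays for a probe and not between probes, whose binding differs.

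Among the shared probes, emc04 was the one detected on all 8 Argonaute IP arrays. emc04 had intensities of 1046, 688, 626 and 713 on ALG-1 IP arrays and 872, 735, 605 and 1288 on ALG-2-Tag IP arrays. emc04 stood at 8254, 5916, 4790.0 and 1111 with the ALG-1 control and 1034, 695, 363 and 340.0 with the ALG-2-Tag control. The IPs overlapped in range, the ALG-1 control was above both at L1 to L3, and the L4 values of the ALG-2-Tag IP and the ALG-1 control were close. Relative to the array medians, emc04 averaged 2.31 ± 0.16 on ALG-1 IP arrays and 2.31 ± 0.28 on ALG-2-Tag IP arrays (log2, SD, n = 4 stages each). The probes most like it over the 16 arrays were emc28, which was not chosen, and emc16 (Spearman rho 0.95 and 0.93).

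emc15 and emc16 ran alike. emc15 had 712, 555, 409 and 512 on ALG-1 IP arrays and 210.0, 570.0, 130.0 and 1206 on ALG-2-Tag IP arrays, and emc15 had 10761, 5183, 3895 and 905 with the ALG-1 control and 1052, 599, 235 and 68 with the ALG-2-Tag control. emc16 had 742, 561, 509 and 563 on ALG-1 IP arrays and 284, 501, 370.0 and 1169.5 on ALG-2-Tag IP arrays, and emc16 had 7704, 4078, 4071 and 722 with the ALG-1 control and 936, 542, 191 and 120.0 with the ALG-2-Tag control. With the ALG-2-Tag IP both were detected at L2 and L4 and not at L1 and L3, and their highest value there was that of L4, whereas with the ALG-1 IP and both controls the highest was that of L1. The centred log2 difference of ALG-1 IP minus ALG-2-Tag IP was 0.93, -0.13, 1.17 and -0.27 for emc15 at L1 to L4. For emc16 it was 0.75, -0.03, 0.60 and -0.37. Both were thus higher with the ALG-1 IP at L1 and L3, and the IPs were close at L2 and L4. The scan position moved with these stages, as given below for emc31, and its part was not tested.

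emc05 was steady with the ALG-1 IP and not with the ALG-2-Tag IP. emc05 had 1177, 958, 933 and 996 on ALG-1 IP arrays and 18, 72, 139 and 1089 on ALG-2-Tag IP arrays. With the controls, emc05 had 2536, 1273, 1424 and 257 (ALG-1 control) and 1306, 757, 378 and 470.0 (ALG-2-Tag control). On the ALG-2-Tag IP arrays the L1 to L3 values were below every ALG-1 IP value and only L4 was detected, where the IPs were close. emc05 was the brightest of the 96 probes on the ALG-1 IP array of L3.

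emc30 was the brightest or next to brightest of all probes on each ALG-2-Tag IP and each ALG-1 control array. emc30 had 447, 359, 298 and 313 on ALG-1 IP arrays and 4115, 1380.0, 1819 and 1259 on ALG-2-Tag IP arrays. The controls gave emc30 17156, 22212, 18001 and 3904 (ALG-1 control) and 477, 385, 167 and 93 (ALG-2-Tag control). Every ALG-2-Tag IP value was above every ALG-1 IP value and every ALG-2-Tag control value, and every ALG-1 control value was above every ALG-1 IP value. It was detected with the ALG-1 IP at L1 only and on no ALG-2-Tag control array. Its profile over the 16 arrays was most like those of emc53 and emc23 (Spearman rho 0.91 and 0.90). Against that control, with no normalization between arrays, it was at least 4.09-fold higher with the ALG-2-Tag IP, a bound in which the lowest signal detected on each array stands in for the undetected group. Bounds here and below compare means over the 4 stages and need not hold at each stage. The sixth shared probe, emc45, was detected on 1 array of each IP, both at L1.

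Of the ALG-1 IP probes, 4 were detected on all 4 ALG-1 IP arrays, emc29, emc69, emc80 and emc88. emc88 had 1713, 1215, 703 and 1429.5 on ALG-1 IP arrays and -8.5, 18, 206 and 455 on ALG-2-Tag IP arrays. With the controls, emc88 had 3689, 2321, 1831 and 119 (ALG-1 control) and 1967, 2604, 410.0 and 608 (ALG-2-Tag control). It was the brightest of the 96 probes on the ALG-1 IP and ALG-2-Tag control arrays of L1 and L2. On those of L4 the intensity of emc69 was higher by a small margin, while by log2 value emc88 ranked 1 on both. On both kinds of array emc88 was dimmest at L3 among the 4 stages. All ALG-1 IP values were above all ALG-2-Tag IP values, which were lowest at L1 and L2.

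emc69 and emc80 had the profile most like that of emc88 over the 16 arrays (Spearman rho 0.96 and 0.95). emc69 had 1277, 1053, 434 and 1430.0 on ALG-1 IP arrays and 22, 36, 156 and 72.5 on ALG-2-Tag IP arrays, and with the controls emc69 had 2738, 2112, 1696 and 181 (ALG-1 control) and 1231, 1583, 495 and 618 (ALG-2-Tag control). emc80 had 1197, 552, 374 and 901 on ALG-1 IP arrays and 20, 24, 18 and 58 on ALG-2-Tag IP arrays, and with the controls emc80 had 2695, 1405, 1436 and 201 (ALG-1 control) and 1414, 1358, 523 and 328 (ALG-2-Tag control). For both, every ALG-1 IP value was above every ALG-2-Tag IP value, and the ALG-2-Tag control was dimmer at L3 and L4 than at L1 and L2. On the ALG-1 control array of L4 neither was detected, although both were with the ALG-1 IP and 1 of them, emc69, with the ALG-2-Tag control.

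emc29 had 859, 569.5, 553 and 615 on ALG-1 IP arrays and 205, 77, 269 and 259 on ALG-2-Tag IP arrays. The controls gave emc29 3701, 1442, 1882 and 219 (ALG-1 control) and 1029, 616, 262 and 157 (ALG-2-Tag control). The ALG-1 IP values did not overlap those of the ALG-2-Tag IP, and they varied less over the stages than those of either control. emc75, which had the second lowest median difference of the 33 over the stages, as ALG-1 control minus ALG-2-Tag control, had 461, 377, 199.5 and 414 on ALG-1 IP arrays and 75.5, 45, 94.5 and 198 on ALG-2-Tag IP arrays. With the controls, emc75 had 1317, 579, 762 and 248 (ALG-1 control) and 890.0, 803, 314 and 219 (ALG-2-Tag control). At each stage it was brighter with the ALG-1 IP than with the ALG-2-Tag IP, and its profile was most like those of emc80 and emc50 (Spearman rho 0.96 and 0.94 over the 16 arrays). emc55, just inside the threshold, had 405, 416, 115 and 219.5 on ALG-1 IP arrays and 373, 109, 132 and 127 on ALG-2-Tag IP arrays, and with the controls 2248, 1019, 1766 and 325 (ALG-1 control) and 737, 529, 112 and 123 (ALG-2-Tag control). At L1 the ALG-1 IP and the ALG-2-Tag IP gave emc55 nearly the same intensity, though only the ALG-1 IP passed the limit on pixels, so its class rests on the limit. The other 10 ALG-1 IP probes were detected on 1 to 3 ALG-1 IP arrays, L1 always among them, with L1 intensities of 429 (emc87) to 744 (emc50).

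Of the ALG-2-Tag IP probes, emc23 was the one detected on all 4 ALG-2-Tag IP arrays. emc23 had 239, 227, 49.5 and 154 on ALG-1 IP arrays and 1151, 883, 713 and 1009 on ALG-2-Tag IP arrays. The controls gave emc23 5468, 5218, 3581 and 1047 (ALG-1 control) and 296, 261, 76.5 and 72 (ALG-2-Tag control). It was steady over the stages with the ALG-2-Tag IP and overlapped neither the ALG-1 IP nor the ALG-2-Tag control. With the ALG-2-Tag IP it was at least 1.88-fold higher than with that control.

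emc51 and emc52 were each the probe most like the other (Spearman rho 0.97 over the 16 arrays). emc51 had 122, 93.5, 62.5 and 115 on ALG-1 IP arrays and 1051, 1159.5, 265 and 811 on ALG-2-Tag IP arrays, and with the controls emc51 had 5443, 4924, 2259 and 962 (ALG-1 control) and 236, 206, 68.5 and 39 (ALG-2-Tag control). emc52 had 144, 139.5, 60.5 and 163 on ALG-1 IP arrays and 939, 531, 726 and 834 on ALG-2-Tag IP arrays, and with the controls emc52 had 4797, 2468, 3851 and 932 (ALG-1 control) and 375, 173, 56 and 57 (ALG-2-Tag control). Both were undetected on all 8 arrays from animals labelled wild type, and both were at least 1.56-fold higher with the ALG-2-Tag IP than with its control. emc44 had 168, 110.0, 74.5 and 119.5 on ALG-1 IP arrays and 591, 799, 413 and 914 on ALG-2-Tag IP arrays, and with the controls emc44 had 4946, 2611, 2530.0 and 449.5 (ALG-1 control) and 401, 305, 122 and 80.5 (ALG-2-Tag control). It was detected with the ALG-2-Tag IP at L1, L2 and L4 and was at least 1.45-fold higher there than with the control.

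emc31 had a wide range over the arrays. emc31 had 341, 122, 216 and 69 on ALG-1 IP arrays and 5125, 55.5, 832 and 137 on ALG-2-Tag IP arrays. The controls gave emc31 23773, 1155, 23618 and 1196 (ALG-1 control) and 340.0, 298, 99 and 34.5 (ALG-2-Tag control). It was the brightest of the 96 probes on the ALG-1 control arrays of L1 and L3 and the ALG-2-Tag IP array of L1, and on the ALG-2-Tag IP array of L2 it ranked 55 by log2 value. L1 and L3 were above L2 and L4 with the ALG-1 IP, the ALG-2-Tag IP and the ALG-1 control, and not with the ALG-2-Tag control. Its spots on the ALG-2-Tag IP array of L1 had a coefficient of variation of 85.9%, the highest of any detected value on the ALG-2-Tag IP arrays. The scan position moved with this pattern, since for every IP the L1 and L3 arrays were read in the near and the L2 and L4 arrays in the far of 2 scan regions, and its part in the result was not tested. With the uncentred values, L1 and L3 both lay above both L2 and L4 for 7 of the 33 probes with the ALG-1 IP (23 of the 96), 7 with the ALG-2-Tag IP (10 of the 96), 20 with the ALG-1 control (72 of the 96) and 0 with the ALG-2-Tag control (3 of the 96). The opposite order, with L1 and L3 both below, was found for 2, 5, 0 and 1 of the 33 in these groups (11, 14, 0 and 1 of the 96). On the centred scale 4, 11, 6 and 3 of the 33 had L1 and L3 above (13, 19, 14 and 13 of the 96) and 10, 7, 6 and 5 had them below (25, 31, 27 and 13 of the 96), so centring removed most of the count in the ALG-1 control. On that scale emc31 and emc46 had them above in each of the first 3 groups.

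emc32 was the probe most like emc31 (Spearman rho 0.94), followed by emc25 (0.89), which lay just outside the threshold. emc32 had 352, 172, 107 and 207 on ALG-1 IP arrays and 1085, 205, 276 and 203 on ALG-2-Tag IP arrays, and with the controls emc32 had 8892, 4067, 7372 and 842 (ALG-1 control) and 347, 278, 133 and 82 (ALG-2-Tag control). emc25 had 274, 159, 75.5 and 93.5 on ALG-1 IP arrays and 467, 166, 253 and 171 on ALG-2-Tag IP arrays, and with the controls emc25 had 10388, 2674, 8251 and 963 (ALG-1 control) and 318, 264, 92.5 and 61.5 (ALG-2-Tag control). Both were brighter at L1 and L3 than at L2 and L4 with the ALG-1 control, like emc31, by a smaller factor. The other probe just outside, emc02, had 394, 425, 296 and 417 on ALG-1 IP arrays and 64.5, 96, 66 and 332 on ALG-2-Tag IP arrays, and with the controls 815, 1327, 1745 and 566 (ALG-1 control) and 528, 493, 209 and 201 (ALG-2-Tag control). At L2, L3 and L4 its ALG-1 IP values were within the range of the ALG-1 IP probes.

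The last 5 ALG-2-Tag IP probes were detected on 1 or 2 ALG-2-Tag IP arrays. emc34 had 133, 164, 55 and 180.0 on ALG-1 IP arrays and 518, 187, 162 and 127 on ALG-2-Tag IP arrays, and with the controls emc34 had 2634, 1627, 1270.0 and 191 (ALG-1 control) and 389, 393, 104 and 84.5 (ALG-2-Tag control). emc53 had 176, 115, 96.5 and 105 on ALG-1 IP arrays and 377, 116, 397 and 148 on ALG-2-Tag IP arrays, and with the controls emc53 had 3647, 1175, 2736 and 419.5 (ALG-1 control) and 158, 144, 60 and 46 (ALG-2-Tag control). Both were detected at L1 alone, and the ALG-1 IP and the ALG-2-Tag IP overlapped for each of them. emc61 had 104, 128, 83.5 and 136 on ALG-1 IP arrays and 574, 437, 203 and 258 on ALG-2-Tag IP arrays, and with the controls emc61 had 2883, 2332, 1557 and 748 (ALG-1 control) and 338, 227, 105 and 32.5 (ALG-2-Tag control). emc73 had 140.0, 139, 48.5 and 111 on ALG-1 IP arrays and 612, 489, 117 and 684 on ALG-2-Tag IP arrays, and with the controls emc73 had 2659, 2563, 2061 and 665 (ALG-1 control) and 217, 237, 79.5 and 54 (ALG-2-Tag control). emc74 had 92, 135, 58 and 112 on ALG-1 IP arrays and 546, 281, 249 and 497 on ALG-2-Tag IP arrays, and with the controls emc74 had 1981, 884, 1181 and 387 (ALG-1 control) and 205, 207, 74.5 and 39.5 (ALG-2-Tag control). emc61 and emc74 were above every ALG-1 IP value on each ALG-2-Tag IP array, and emc73 was not at L3.

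The question the design puts to the control arrays is how the probes differ between IPs from animals that lack the target of the antibody. ALG-1 control and ALG-2-Tag control were compared in limma on log2 values centred on the median of the 96 probes, with terms for IP and stage, over all 96 probes (3 residual degrees of freedom, Benjamini-Hochberg adjustment, threshold 0.05). Of the 33 probes, 14 were higher in the ALG-1 control and 9 were lower, where 24.0% and 36.5% of the 96 were higher and lower. The higher calls split by class. Of the 11 ALG-2-Tag IP probes 10 were higher and 0 lower, all but emc34. Of the 16 ALG-1 IP probes 0 were higher and 8 lower (emc50, emc64, emc69, emc75, emc80, emc86, emc87 and emc88). Of the 63 probes not chosen, 9 were higher and 26 lower, so the lower calls of the ALG-1 IP probes were not far above that share. Of the shared probes, emc04, emc15, emc16 and emc30 were higher, emc05 was lower, and emc45 did not pass the test. The median log2 difference was 1.76 for the ALG-2-Tag IP probes, 1.06 for the shared probes and -0.76 for the ALG-1 IP probes, against -0.38 for all 96. Single differences ran from 0.53 (emc34) to 2.81 (emc31) among the ALG-2-Tag IP probes, all 11 above 0. They ran from -1.72 (emc88) to 0.33 (emc42) among the ALG-1 IP probes, 14 of 16 below 0. Of all 96 probes, 38 were above 0 and 58 below, and of the 63 not chosen 42 were below. The medians of the ALG-2-Tag IP and ALG-1 IP probes were 2.52 apart.

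emc30 had the largest difference of the 33. Its centred log2 value was 4.12 ± 0.64 in the ALG-1 control and 0.23 ± 0.16 in the ALG-2-Tag control (SD, n = 4 stages each), a difference of 3.89 that was at least 6.69-fold (standard error 0.31, limma adjusted p = 1.29e-26), and its direction was the same at 4 of 4 stages. emc31, at 2.72 ± 1.79 in the ALG-1 control and -0.09 ± 0.34 in the ALG-2-Tag control, differed by 2.81, at least 2.53-fold (limma adjusted p = 2.05e-15), also with the same direction at 4 of 4 stages. In the other direction emc88 had 0.75 ± 0.85 in the ALG-1 control and 2.47 ± 0.89 in the ALG-2-Tag control, a difference of -1.72 (limma adjusted p = 6.27e-07), and emc75 had -0.16 ± 0.38 in the ALG-1 control and 1.37 ± 0.29 in the ALG-2-Tag control, a difference of -1.52 (limma adjusted p = 8.52e-06). Both had this direction at all 4 stages. The ALG-2-Tag IP probes and emc30 were detected on no ALG-2-Tag control array, so their differences are set against signal below detection.

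These p-values rest on a spread that limma found to be common to all 96 probes. With each probe's own spread, the limma model called 10 of the 33 higher and 7 lower (18.8% and 19.8% of the 96). emc31 and emc88 were no longer called, with adjusted p = 0.0932 (standard error 0.91) and 0.0798 (standard error 0.50) in that limma model, while emc30 (adjusted p = 0.0184 with limma) and emc75 (adjusted p = 0.0421 with limma) still were. The direction of the lower calls depended on the scaling, since without normalization between arrays 24 of the 33 and 63 of the 96 were higher and 0 lower (limma), and the median difference of all 96 was 1.57 in place of -0.38. The distance between the class medians was 2.53 on that scale and ran from 1.66 (the authors' processed values) to 3.15 (an offset of 0) over all settings tried. Without L4, 14 of the 33 were higher and 9 lower (23 and 39 of the 96, limma), and the class medians were 2.72 apart.

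Stage differences among the control arrays were tested in the same limma fit. Of the 33 probes, emc31 (limma adjusted p = 0.00115) and emc88 (limma adjusted p = 0.0364) differed between stages, where 4.17% of the 96 did. On the centred log2 scale of the test, emc31 was high at L1 and L3 in the ALG-1 control. In the ALG-2-Tag control emc88 had centred values of 2.586, 3.527, 1.354 and 2.425 at L1 to L4, lowest at L3. In the ALG-1 control it had 1.114, 1.494, 0.863 and -0.459, lowest at L4. Neither passed with each probe's own spread (ordinary F-test per probe, adjusted p = 0.745 and 0.712), in quantile-normalised values, or in the authors' processed values. Without the L3 arrays 0 of the 33 and 2 of the 96 passed (4 of the 33 had an unadjusted p under 0.05 in limma). emc45 lay just past the threshold (limma adjusted p = 0.0565). Over the 13 alternatives emc31 was called in 6, emc45 in 6 and emc88 in 4, and without the L2 arrays emc45 was the 1 probe of the 33 called. Without normalization between arrays 21 of the 33 and 36 of the 96 passed, on arrays whose brightness differed between stages.

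Between the Argonaute IPs, the ALG-1 IP minus the ALG-2-Tag IP was described on the centred log2 scale, with no test because the rule used these arrays. Beyond 2-fold at all 4 stages, 5 of the 33 probes were higher with the ALG-1 IP (emc19, emc29, emc50, emc80 and emc86) and 6 were lower (emc23, emc30, emc44, emc51, emc52 and emc74), which made 6.25% of the 96 probes in each direction. Nothing is read from these counts, since a class chosen by detection with 1 IP is bound to be brighter there. The median difference of the ALG-1 IP probes was 1.38, 1.23, 0.56 and 1.08 at L1 to L4, and that of the ALG-2-Tag IP probes was -3.01, -2.13, -1.40 and -1.50. The largest median differences over the stages were 2.93 for emc69 and 2.78 for emc88 among those higher with the ALG-1 IP, and -2.72 for emc51 and -2.48 for emc52 among those lower. As bounds on the means over the stages, emc69 was at least 1.61-fold and emc88 at least 1.90-fold higher with the ALG-1 IP, and emc51 at least 1.74-fold and emc52 at least 1.75-fold lower. At L3 the difference was 0.81 for emc69 and 0.36 for emc88. The shared probes spread widely, with emc05 at 2.86, 2.55, 2.64 and 0.31 and emc30 at -3.67, -2.17, -2.32 and -1.27 at L1 to L4.

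Each IP was set against its own control without normalization between arrays, because the amounts of RNA may differ, and again with no test. Of the 33 probes, 0 were higher in the ALG-1 IP than in its control beyond 2-fold at all 4 stages and 11 were lower (0.0% and 26.0% of the 96). The 11 were emc30 and 10 of the 11 ALG-2-Tag IP probes, and the exception was emc34. The ALG-1 IP probes, chosen for signal with this IP, were all dimmer with it than with its control at L1, L2 and L3, with medians of -1.53, -1.38 and -2.34, and at L4 13 of 16 were brighter, with a median of 0.72. This was not particular to the class, since all 96 probes were dimmer with the ALG-1 IP at L1, L2 and L3. At L4, 28 of the 96 were brighter. For all 96 probes the medians were -2.52, -1.57, -2.54 and -0.50. Without L4, whose control array was dim, 25 of the 33 were lower at every stage, and so were 60 of the 96. Centred on the array medians, 1 of the 33 was higher and 8 lower (2 and 10 of the 96), and with quantile normalization 5 were higher and 7 lower (5 and 8 of the 96). The largest median differences were -5.50 for emc30 and -4.89 for emc31, which was at least 11.6-fold lower on the ALG-1 IP arrays. Both depended on the scaling, since with the arrays centred, quantile-normalised, scaled to the 75th percentile or as the authors' processed values, emc30 lay between -2.86 and -2.14 and emc31 between -3.23 and -2.54. Without 1 stage emc31 lay between -6.29 and -3.50.

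Set against its control, the ALG-2-Tag IP had 7 of the 33 higher beyond 2-fold at all 4 stages (emc23, emc30, emc44, emc51, emc52, emc61 and emc74) and emc69 alone was lower (7.29% and 1.04% of the 96). All 11 ALG-2-Tag IP probes were brighter with the IP at L1, L3 and L4, and 9 of 11 at L2, with medians of 2.09, 1.34, 1.64 and 1.99 at L1 to L4. Of the 96 probes, 26, 25, 64 and 92 were brighter with the IP at L1 to L4, so the count at L4 was near that of all probes. The ALG-1 IP probes had medians of -2.35, -1.64, -0.01 and 0.34, and all 96 probes -0.65, -0.56, 0.19 and 0.97. The largest median differences were 3.31 for emc30 and 2.63 for emc51 among those higher with the IP, and -2.69 for emc80 and -2.39 for emc88 among those lower. As bounds on the means over the stages, which do not hold at each stage for emc88, emc80 was at least 1.25-fold and emc88 at least 1.77-fold lower with the ALG-2-Tag IP than with its control. The difference of emc88 was that of L1 and L2, with -4.30, -4.52, -0.03 and -0.47 at L1 to L4. emc80 was lower beyond 2-fold at L3 as well, with -3.69, -3.60, -1.77 and -0.68. Without L1 or without L2 the medians were -0.47 for emc88 and -1.77 for emc80. Without L2, 10 of the 33 were higher (10 of the 96), and without L4, 3 were lower (3 of the 96).

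The rule did not use the place of the probes on the array. The spots lie in 4 blocks of 16 rows and 12 columns, and of the 80 pairs of probes that are neighbours in a row, 15 joined a pair of the 33, 10 of them from the same class. In all, 23 of the 33 had another of them as a neighbour, and whether neighbouring spots share signal was not tested.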

How the data were processed

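The 16 arrays were grouped by IP and larval stage as labelled, with 1 array each. Per the file headers, the authors scanned the arrays with GenePix Pro 4.0.1.19 and deposited, for each of 768 spots (96 probes, 8 spots each), the intensity as the spot median minus the local background, with no normalization. Beside each spot the deposited files hold a percent, the share of its pixels over background by more than 2 SD, and a flag for bad or missing spots. A second deposited table holds processed intensity values on a linear scale, used as an alternative, and R 2.13.1 and limma are the tools in the submitters' processing notes. Spots marked bad (57) were left out.

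Log2 values were made with limma 3.58.1 in R 4.3.3 (normexp, offset 50) and averaged over the spots of a probe. Arrays were centred on the median of the 96 probes, except where an IP was set against its own control. Tests used the 8 control arrays only and all 96 probes, with limma (terms for IP and stage, threshold 0.05 after Benjamini-Hochberg adjustment), and the fit was checked on simulated arrays. limma's pooled spread took the same value for every probe, so fits with each probe's own spread, and with a trended, robust spread, were added after the data were seen, as was centring on the probes that were not chosen. The other alternatives were no normalization, quantile or 75th-percentile scaling, an offset of 0, the authors' values, the median of spots, a filter on dim probes, other detection limits, no stage term, all 16 arrays, and leaving out each stage.

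The chosen probes, the classes and the comparisons were set with earlier results of these data known. Values in every array are given for probes detected on at least 4 of the 8 Argonaute IP arrays, for the 2 with the largest median difference in each direction of a comparison, for the 2 nearest each side of the detection limit, and for those detected on no control array of the IP that detected them. The small number of arrays and the low signal over background limit the precision.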

Additional observations from a re-analysis of the deposited data

Results flagged for a closer look

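Of 84 sets of 4 arrays of 1 IP examined for the named probes, on uncentred log2 values, 6 held a value far from the other 3. The 4 arrays of a set are stages of unlike brightness and not replicates, so no rate by chance can be set beside this count. emc30 was higher on the ALG-1 IP array of L1 (log2 value 8.82, the others 8.32 to 8.39). It was lower on the ALG-1 control array of L4 (11.66, the others 14.02 to 14.40). Once centred on the array medians, emc30 was lowest on the first of these arrays (0.999, the others 1.133 to 1.364). On the second it was within the range of the others (3.985, the others 3.354 to 4.897). emc44 was higher on the ALG-1 IP array of L1 (7.71, the others 6.83 to 6.93), and emc69 was lower on the ALG-1 IP array of L3 (8.27, the others 10.16 to 10.32). emc73 was lower on the ALG-1 control array of L4 (9.40, the others 11.11 to 11.34), the dim array of that group, and emc80 was higher on the ALG-2-Tag IP array of L4 (7.78, the others 6.73 to 6.84), where it was not detected.

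For 10 of the named probes the IP lay below its control at all 4 stages for ALG-1 and above its control at all 4 stages for ALG-2-Tag, without normalization between arrays. Of the 96 probes, 68 lay below the control at all 4 stages for ALG-1, and 17 lay above it at all 4 stages for ALG-2-Tag. Apart from emc30, the 10 were ALG-2-Tag IP probes, chosen for signal with that IP. The mean log2 differences of IP minus control were -5.10 for ALG-1 and 3.18 for ALG-2-Tag with emc30, and in the same order -4.67 and 2.47 with emc51, -4.31 and 2.31 with emc52, -4.27 and 1.14 with emc32 and -4.19 and 2.45 with emc23. They were -4.00 and 1.4 with emc61, -3.91 and 1.57 with emc73, -3.85 and 1.93 with emc44, -3.50 and 1.55 with emc53, and -3.11 and 1.59 with emc74. The difference between the 2 Argonautes was not tested, because the choice of probes used the IP arrays.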

How the results depend on the processing

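The number of chosen probes was 33 and became 16 at a limit of 75% of pixels and 67 where at least 4 of 8 spots had to be found. Between the controls (14 higher, 9 lower; limma), no normalization gave 24 higher and 0 lower and the 75th percentile 14 lower, and leaving out a stage gave 12 to 14 higher and 8 to 9 lower. Without normalization emc88 and emc75 changed sign, to 0.24 and 0.43 (limma adjusted p = 0.67 and 0.436), and emc31 had an adjusted p of 0.0701 with limma's trended, robust spread. Stage differences among the controls (2 probes) numbered 21 without normalization, 1 with the 75th percentile, 0 with quantile normalization, the authors' values, the median of spots or each probe's own spread, and 0 to 2 without 1 stage. ALG-1 IP against ALG-2-Tag IP had 1 probe higher in place of 5 without normalization, and 5 to 7 without 1 stage. ALG-1 IP against its control (0 higher, 11 lower) gave 1 higher when centred, 5 higher and 7 lower after quantile scaling, 7 and 7 after 75th-percentile scaling and 5 and 4 in the authors' values, and 11 to 25 lower without 1 stage. ALG-2-Tag IP against its control (1 lower) gave 2 lower when centred, 5 after quantile scaling, 3 after 75th-percentile scaling and 6 in the authors' values, and 1 to 3 without 1 stage. The causes were not tested. Of the other values for these counts, 100 stayed within 1.5 times, and of those for named probes, 151 kept their direction and their side of the threshold. Signal near background limits the IP values, since 63 of the 96 probes were detected on no Argonaute IP array and 13 of the 33 on 1. The stage term pairs the control arrays by stage, and without it 14 were higher and 10 lower (limma). Beyond that term no paired analysis was possible because each IP and stage had 1 array.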
